A study of Mus musculus with 18 samples.

Results

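The enzymes that make and break down heme, with a carrier that moves it, were followed across the 18 mouse liver libraries of the series. Members were the rows of the deposited table with the symbols Alas1, Alad, Uros, Urod, Cpox, Ppox, Fech, Hmox1 and Slc48a1, 9 of the 19057 genes listed, and all 9 passed the filter on low values. Liver RNA of 10-week-old male ICR mice was sequenced in 6 groups of 3 libraries. Con mice had a regular diet and saline. In HS mice a high-fat diet was begun at 3 weeks, and 1 injection of streptozotocin (STZ, 85 mg/kg), which destroys pancreatic beta cells, followed at 5 weeks, a model of type 2 diabetes. Both groups of recipients had this diet and STZ, and from 5 to 7 weeks were given gut microbiota in the pooled small intestine content of donors that had received alginate oligosaccharide (AOS, short sugar chains from a seaweed polymer) at 10 mg/kg, for A10-FMT, or water, for Con-FMT. A10 (AOS at 10 mg/kg) and HS+A10 (the same AOS dose together with diet and STZ) are described by the labels alone, which do not give the dosing period. Because the donor material was pooled, the recipients of a group do not represent separate donors. The labels number the libraries of a group without saying that they came from separate mice, so p-values measure the spread between these libraries.

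Heme is an iron-holding ring that cytochromes P450, catalase and other proteins of the hepatocyte need as a cofactor. Its synthesis starts and ends in the mitochondrion: ALAS1 makes aminolevulinic acid and is the rate-limiting step in liver, ALAD joins this precursor into porphobilinogen, UROS and UROD build and trim the ring, and CPOX, PPOX and FECH (ferrochelatase) oxidise it and insert iron. HMOX1, the inducible heme oxygenase, opens the ring and releases biliverdin, carbon monoxide and iron, and in liver it is known from Kupffer cells that clear old red blood cells as well as from stressed hepatocytes. SLC48A1 (HRG1) carries heme out of endosomes and lysosomes. ALAS1 and HMOX1 are the controlled ends of the pathway, since heme lowers the former and induces the latter.

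Promoter sequences are shown for Alas1, the first enzyme, for Uros and Cpox, the matched members called in the most comparisons, and for Alad, which differed between the recipients. Hmox1, Slc48a1 and Fech were not matched in the promoter table. They are RefSeq sequences of 250 bases before an annotated start, 5′ to 3′ on the gene's strand, in GRCm38.p6. Capitals mark the E-box CACGTG, which reads the same on both strands and is bound by clock and MYC family factors.
Alas1 (chr9:106247955-106248204, minus strand): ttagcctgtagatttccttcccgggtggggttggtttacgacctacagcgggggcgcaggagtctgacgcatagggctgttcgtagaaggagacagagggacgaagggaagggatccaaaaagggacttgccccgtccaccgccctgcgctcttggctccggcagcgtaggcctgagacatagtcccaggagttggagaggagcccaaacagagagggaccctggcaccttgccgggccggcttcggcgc
Alad (chr4:62520064-62520313, minus strand): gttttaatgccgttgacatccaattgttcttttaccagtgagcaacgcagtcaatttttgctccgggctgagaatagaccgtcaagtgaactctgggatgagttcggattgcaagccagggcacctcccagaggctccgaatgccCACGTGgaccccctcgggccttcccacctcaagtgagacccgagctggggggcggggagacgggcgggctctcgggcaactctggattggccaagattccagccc
Uros (chr7:133709296-133709545, minus strand): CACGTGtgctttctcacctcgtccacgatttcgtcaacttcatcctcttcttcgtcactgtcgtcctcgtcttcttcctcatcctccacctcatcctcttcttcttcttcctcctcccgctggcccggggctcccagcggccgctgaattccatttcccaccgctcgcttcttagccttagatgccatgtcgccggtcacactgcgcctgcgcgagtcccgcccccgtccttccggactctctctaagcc
Cpox (chr16:58669958-58670207, plus strand): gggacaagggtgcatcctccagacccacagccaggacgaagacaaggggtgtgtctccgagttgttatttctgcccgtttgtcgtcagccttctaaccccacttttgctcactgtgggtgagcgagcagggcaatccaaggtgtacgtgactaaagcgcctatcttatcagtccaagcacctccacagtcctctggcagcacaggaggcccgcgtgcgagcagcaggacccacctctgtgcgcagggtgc
Of the 6 members matched in the promoter table, Alad at both of its 2 starts, Uros at 1 of 2 starts and Urod held the E-box, which 6.02% of the 32851 promoters of this length hold. Neither Alas1 start, nor Cpox or Ppox, held it. The antioxidant response core TGACNNNGC (in 10.2% of all promoters), the D-box TTATGTAA (0.819%), the nuclear receptor motif AGGTCA (14%), the cAMP response element TGACGTCA (1.55%) and the forkhead site GTAAACA (3.17%) were searched on both strands and were in none of these windows.

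Gene positions come from the GRCm38 annotation, which matches the mm10 build named in the submitters' processing notes. Alas1 lies at chr9:106233455-106248654, Alad at chr4:62509169-62519918, Uros at chr7:133686243-133710072, Urod at chr4:116989965-116994413 and Ppox at chr1:171275990-171281186, all on the minus strand. Cpox lies at chr16:58670292-58717636, Hmox1 at chr8:75093621-75100589 and Slc48a1 at chr15:97778520-97792692 on the plus strand, and Fech at chr18:64452914-64490251 on the minus strand. Exons of 4 members overlap a gene on the opposite strand: Ppox shares 791 exonic bases (17.5%) with B4galt3, Alas1 465 (7.53%) with the antisense gene 4930500F10Rik, Cpox 204 (3.06%) with Gpr15 and Slc48a1 29 (1.05%) with Hdac7. Whether the authors' counting used the strand is not given in the sources used here, so reads of these stretches cannot be assigned to either partner, and the Ppox values carry this limit most.

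Values are RPKM, reads scaled to the length of the gene and the size of the library, so that levels can be compared between genes. RPKM summed to between 692818 and 806937 per library, and steps between low values put relative depth between 0.95 and 1.05 of the mean, with the number of reads unknown. Hepatocyte markers summed to between 32560 and 55070 RPKM in all libraries. Some libraries stand apart. Con replicate 3 lay between the other Con libraries for 98.6% of 140 genes in which those differed over 2-fold (7 of the 9 members), and A10 replicate 3 did so for 96.3% of 135 genes (4 of the 9 members), against 6.52% to 74.4% in the other libraries. In Con-FMT replicate 3 the 13 pancreatic acinar markers summed to 23640 RPKM, against 14.06 to 50.41 elsewhere. Whether Con replicate 3 and A10 replicate 3 are independent of the other libraries of their groups was not tested, and if they are not, the SDs and p-values of Con and A10 rest on 2 libraries each. Calls lost without these 3 libraries are given with the value without them, a choice made after seeing the data. Erythroid markers summed to between 4221 and 12050 RPKM in HS and between 1542 and 2964 in Con, mostly in the hemoglobin genes Hba-a1 (1406 ± 483 RPKM in Con and 4861 ± 2650 in HS), Hbb-bs (104 ± 110 and 1058 ± 857) and Hbb-b1 (655 ± 356 and 1491 ± 456, SD, n = 3). Epb42, Hba-a2 and Hbb-bt were among the markers at 0 in at least 1 library. Of the 6 erythroid markers tested, limma called 0 between HS and Con (3 at an unadjusted p under 0.05, median change 1.52). In A10-FMT relative to HS it called 0 (4 at an unadjusted p under 0.05, median -1.70). In Con-FMT relative to HS 3 of 6 fell, Hba-a1, Hbb-bs and Hbb-bt (median -1.67), a count of 0 with scaling to the same median or without Con-FMT replicate 3, HS replicate 2 or HS replicate 3. Hbb-bs and Hbb-bt also lost their calls without Con-FMT replicate 1, Hba-a1 without Con-FMT replicate 2 and Hbb-bs without HS replicate 1. The clock output gene Dbp lay between 0.36 and 3.41 RPKM in Con, A10 and HS and between 47.26 and 98.8 RPKM in HS+A10, A10-FMT and Con-FMT, so that the state of the clock and the treatments that separate these sets cannot be told apart.

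**Figure D1:**
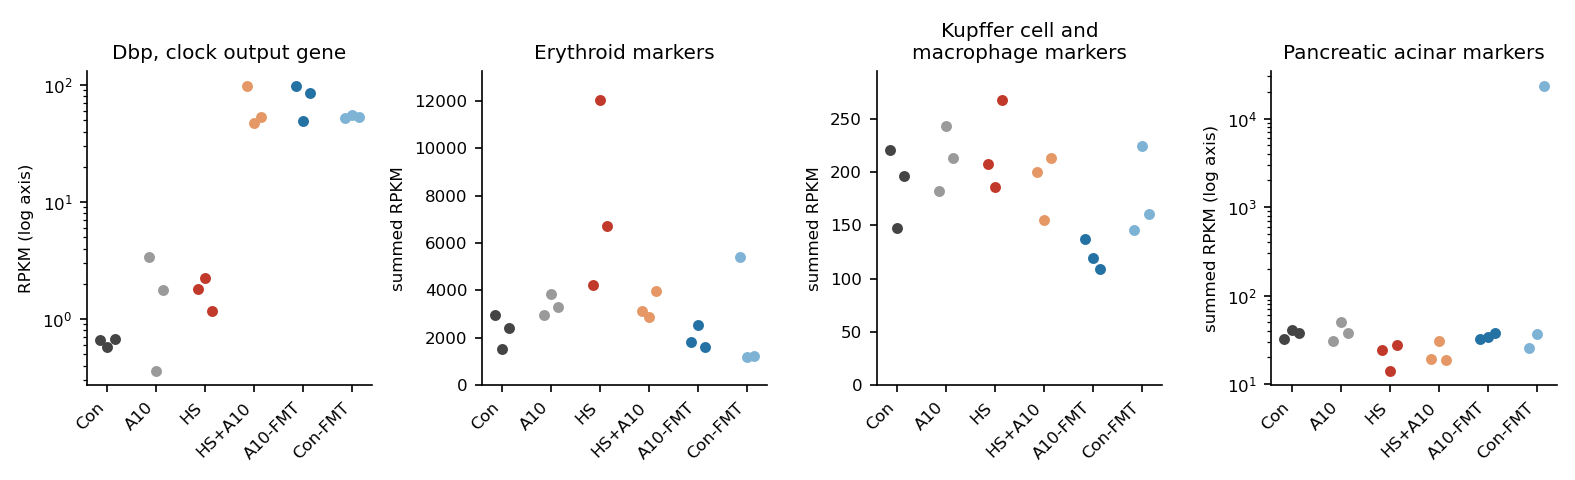
Each point is a library, by group: RPKM of Dbp on a log axis, and summed RPKM of 12 erythroid markers, of 12 Kupffer cell and macrophage markers and, on a log axis, of 13 pancreatic acinar markers. Dbp splits the groups into sets below 3.41 and above 47.26 RPKM, and Con-FMT replicate 3 reaches 23640 in the pancreatic panel.

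All 9 members were expressed in every library. Mean levels over the 18 libraries ran from 10.2 RPKM for Ppox to 188 RPKM for Alad, and all members lay between the 77.8th and the 97.7th percentile of the listed genes. Alas1 varied most, 15.1-fold between its lowest and highest library and 5.96-fold between its lowest and highest group mean. Hmox1 followed with 4.87-fold and 2.84-fold. The other 7 members stayed within 1.26-fold to 1.88-fold over all libraries, and Urod was the steadiest, with group means from 43.2 to 48.3 RPKM.

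**Figure D2:**
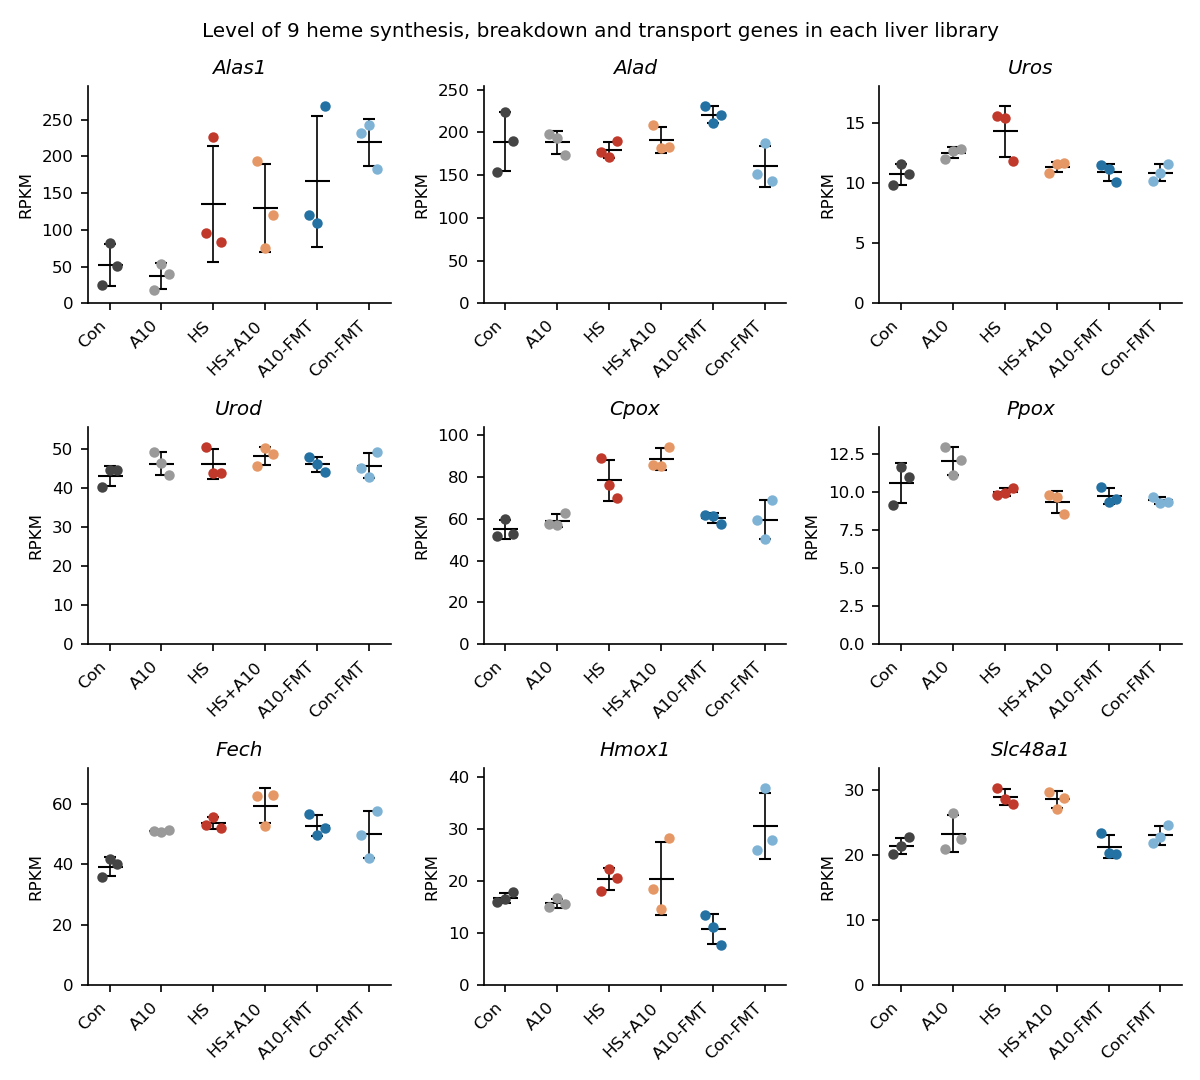
RPKM of each member (y axes, from 0) in the 3 libraries of each group (points), with the group mean and SD (horizontal tick and bar). Alas1 has its lowest means in Con and A10, Hmox1 is lowest in A10-FMT and highest in Con-FMT, and Cpox is highest in HS and HS+A10.

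Changes were tested with limma on log2(RPKM + 1) over all genes, and genes below an adjusted p of 0.05 are referred to as called. For HS against Con, 3 of 9 members were called, all higher (Cpox, Fech and Slc48a1), where 9.8% of all genes tested were called, 8.76% higher and 1.04% lower. The median change was 0.38 for the members and 0.14 for all genes, and with libraries scaled to the same median 0 members were called. For A10-FMT against HS, 3 were called, all lower (Uros, Hmox1 and Slc48a1), where 16.5% of all genes were called, 1.71% higher and 14.7% lower. For Con-FMT against HS, 3 were called, all lower (Uros, Cpox and Slc48a1), where 18.2% of all genes were called, 3.68% higher and 14.5% lower. These last 2 comparisons share the HS libraries with each other and with HS against Con. The 2 kinds of recipient differed in 2 members, Hmox1 lower and Alad higher in A10-FMT, where 13.8% of all genes were called, 4.85% higher and 8.94% lower.

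Direct AOS dosing gave fewer calls. In HS+A10 against HS, limma called 0 members (7.32% of all genes, 2.95% higher and 4.37% lower), with 1 at an unadjusted p under 0.05. In A10 against Con it called 0 (0.0686% of all genes, 0.049% higher and 0.0196% lower), with 2 at an unadjusted p under 0.05. In HS+A10 against A10, the effect of diet and STZ in AOS-dosed mice, 4 were called, Alas1, Cpox and Slc48a1 higher and Ppox lower, where 20.9% of all genes were called (13.6% higher and 7.28% lower). The test of whether that effect differed from the effect without AOS called 0 members, with 2 at an unadjusted p under 0.05, and 1 of all genes (0.0098%). Groups did not overlap for 6, 5, 5 and 2 members in the 4 comparisons of the recipient experiment, where 36.7%, 37.5%, 35% and 31.5% of all genes did not, and for 1, 2 and 6 members in the other 3 pairs of groups, where 27.4%, 24.8% and 43% did not. An exact two-sided permutation test of 3 against 3 libraries cannot go below p = 0.1, the value of every member without overlap.

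**Figure D3:**
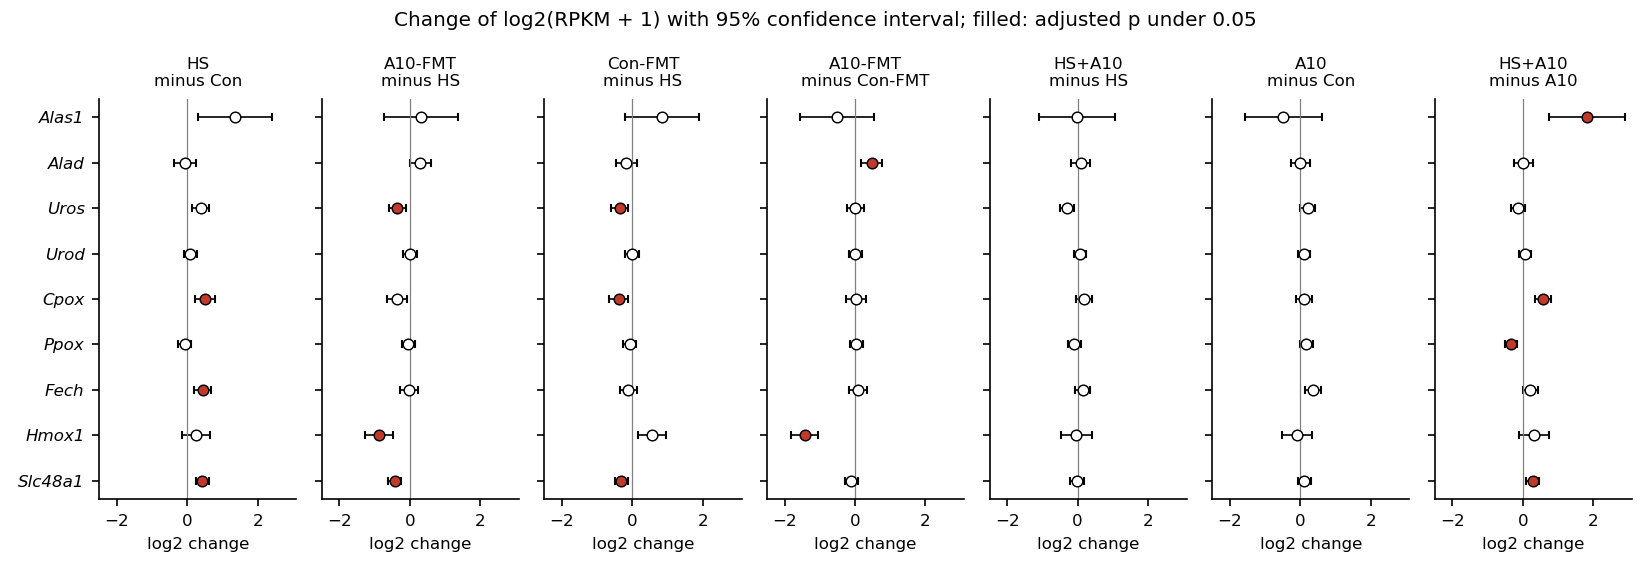
Change of log2(RPKM + 1) of each member (points) with its 95% confidence interval in 7 comparisons, with filled points for members called at an adjusted p under 0.05. Hmox1 has its largest change, -1.43, between A10-FMT and Con-FMT, and the intervals of Alas1 are the widest.

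Alas1, the rate-limiting enzyme, had its lowest group means in A10 and Con and higher means in the groups given diet and STZ. Of the pairs tested across this divide, only HS+A10 against A10 was called, and the recipients were compared with neither Con nor A10. HS+A10 replicate 2 lay below Con replicate 2. It measured 24.9, 82.1 and 50.6 RPKM in Con, 17.8, 52.9 and 39.7 in A10, 95.1, 226 and 83.5 in HS, 194, 75.4 and 120 in HS+A10, and, among the recipients, 121, 109 and 269 in A10-FMT against 231, 243 and 183 in Con-FMT. No HS library overlapped Con, but the highest Con and the lowest HS library nearly met, and HS replicate 2 and A10-FMT replicate 3 stood well above the other libraries of their groups. HS exceeded Con 2.57-fold, a log2 change of 1.35 (SE 0.475) that did not pass the test (adjusted p = 0.0885). The SD was 54.5% of the mean in Con and 58.8% in HS. HS+A10 exceeded A10 3.52-fold, with 130 ± 59.7 against 36.8 ± 17.7 RPKM (SD, n = 3), a log2 change of 1.82 (SE 0.509, adjusted p = 0.0201). That call was lost without HS+A10 replicate 1 (1.48, adjusted p = 0.0936), without A10 replicate 1 (1.38, adjusted p = 0.09) and without the 3 libraries named above (1.93, adjusted p = 0.0628). The test of whether the change with diet and STZ differed with AOS did not call Alas1 (0.46, SE 0.719, adjusted p = 0.831). Dbp was at 47.26 to 97.45 RPKM in HS+A10 and at 0.36 to 3.41 RPKM in A10, and the part of the clock in the Alas1 difference was not tested.

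In the order of group means, Con-FMT (219 ± 31.9 RPKM) and A10-FMT (166 ± 89.3) stood above HS (135 ± 79.3), HS+A10 (130), Con (52.5 ± 28.6) and A10. Neighbours in this order that were compared did not differ beyond their spread, with adjusted p-values of 0.525 for A10-FMT against Con-FMT, 0.653 for A10-FMT against HS, 0.99 for HS+A10 against HS and 0.713 for A10 against Con. Con-FMT libraries were the most alike, with an SD of 14.6% of the mean, and exceeded HS by 0.83 on the log2 scale (adjusted p = 0.25). The 95% interval of the HS+A10 against HS difference, -1.10 to 1.07 on the log2 scale, leaves a moderate Alas1 change undetectable with these libraries.

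Alad, the next enzyme, was the most abundant member and separated the 2 kinds of recipient. It measured 231, 211 and 221 RPKM in A10-FMT and 151, 188 and 143 RPKM in Con-FMT. HS, at 178, 171 and 190 RPKM, overlapped Con-FMT, with a mean between those of the recipients. All A10-FMT libraries were above all HS and Con-FMT libraries. The A10-FMT level was 1.38 times that of Con-FMT, a log2 change of 0.47 (SE 0.138, adjusted p = 0.0446), while against HS the changes were 0.30 for A10-FMT (adjusted p = 0.149) and -0.17 for Con-FMT (adjusted p = 0.416), neither called. The call between recipients was lost without any of the A10-FMT libraries (adjusted p = 0.114, 0.0932 and 0.0937 without replicates 1, 2 and 3, with changes of 0.44, 0.50 and 0.47), without Con-FMT replicate 1 (0.43, adjusted p = 0.124) and without Con-FMT replicate 3 (0.39, adjusted p = 0.123). Without all 3 libraries that stand apart it was 0.39 (adjusted p = 0.17), and with no filter on low values the adjusted p was 0.0707. With the replicate number as a block the adjusted p was 0.0603. Con spanned 154 to 223 RPKM. A10-FMT replicate 1 lay above this span, Con-FMT replicates 1 and 3 lay below it, and the other recipient libraries lay inside it.

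Uros, which closes the ring, was highest in HS. It measured 15.6, 15.5 and 11.9 RPKM in HS, against 9.82, 11.6 and 10.7 in Con, 10.9, 11.6 and 11.6 in HS+A10, 11.5, 11.1 and 10.1 in A10-FMT, with 10.1, 10.9 and 11.6 in Con-FMT. HS replicates 1 and 2 stood above every other library of the series. HS replicate 3 lay only just above Con, HS+A10 and the recipients, and below every A10 library (11.99, 12.7 and 12.8 RPKM). A10 lay above Con without overlap, a change of 0.21 that was not called. In AOS-dosed mice the direction with diet and STZ was opposite, with HS+A10 below A10 without overlap (-0.13, not called). The effect of diet and STZ with AOS differed from that without AOS by -0.51 (SE 0.133), which was not called. The increase in HS, 0.38 (SE 0.109), missed the threshold (adjusted p = 0.0503) and passed it with HS replicate 3 left out (0.50, adjusted p = 0.0166). Relative to HS, Uros fell by 0.36 in both kinds of recipient (adjusted p = 0.0464 for A10-FMT and 0.0411 for Con-FMT). Neither call held when libraries were scaled to the same median (-0.18, adjusted p = 0.276, and -0.25, adjusted p = 0.0976). The A10-FMT call was also lost without HS replicate 1 (-0.29, adjusted p = 0.113), HS replicate 2 (-0.30, adjusted p = 0.145) or any A10-FMT library (adjusted p = 0.056, 0.103 and 0.148 without replicates 1, 2 and 3, with changes of -0.39, -0.37 and -0.31). The Con-FMT call was lost without HS replicate 1 (-0.30, adjusted p = 0.127), HS replicate 2 (-0.30, adjusted p = 0.131) or any Con-FMT library (adjusted p = 0.121, 0.0916 and 0.0505, with changes of -0.32, -0.36 and -0.40). Without the 3 libraries that stand apart both were lost (adjusted p = 0.0776 for A10-FMT and 0.0792 for Con-FMT, changes -0.36 and -0.40). In all, 11 of 15 alternatives ended the A10-FMT call and 10 of 15 the Con-FMT call. With direct AOS the change from HS was -0.30 (adjusted p = 0.0639), which passed without HS replicate 3 (-0.42, adjusted p = 0.0242).

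Urod, which trims the side chains of the ring, was called in no comparison, and its 8 changes, the interaction included, lay between -0.03 and 0.10 on the log2 scale. The 95% interval of its difference between HS and Con ran from -0.10 to 0.28.

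Cpox, coproporphyrinogen oxidase, was higher in both groups kept on diet and STZ without a transplant. It measured 52.0, 60.1 and 52.7 RPKM in Con and 57.5, 57.3 and 62.6 in A10, against 89.3, 76.1 and 69.8 in HS and 85.8, 85.3 and 94.5 in HS+A10. The recipients, at 62.0, 61.6 and 57.6 RPKM in A10-FMT, with 59.4, 50.3 and 69.1 in Con-FMT, lay in or near the range of Con and A10 and below every HS library. Cpox rose 1.43-fold in HS relative to Con (log2 change 0.50, SE 0.124, adjusted p = 0.031) and 1.5-fold in HS+A10 relative to A10 (0.57, SE 0.11, adjusted p = 0.00214). The latter call held under all 15 alternatives tried. The former was lost with libraries scaled to the same median (0.32, adjusted p = 0.123), with quantile normalization (0.37, adjusted p = 0.0995) and with the replicate number as a block (0.50, adjusted p = 0.0578). It was also lost without HS replicate 1 (0.40, adjusted p = 0.0783), HS replicate 2 (0.52, adjusted p = 0.077), Con replicate 1 (0.46, adjusted p = 0.1), Con replicate 3 (0.47, adjusted p = 0.105) or the 3 libraries that stand apart (0.47, adjusted p = 0.0847).

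Relative to HS, Cpox fell by 0.39 in Con-FMT (SE 0.124, adjusted p = 0.0487) and was lower by a log2 change of -0.36 in A10-FMT, which did not pass (adjusted p = 0.0663). The Con-FMT call was lost under 9 of 15 alternatives. Among these were scaling to the same median (-0.28, adjusted p = 0.112), quantile normalization (-0.34, adjusted p = 0.0758) and the replicate number as a block (-0.39, adjusted p = 0.0788). It was also lost without Con-FMT replicate 1 (-0.40, adjusted p = 0.101), Con-FMT replicate 2 (-0.28, adjusted p = 0.162), HS replicate 1 (-0.30, adjusted p = 0.153) or HS replicate 2 (-0.41, adjusted p = 0.0936). In a fit of all 18 libraries the A10-FMT change passed (adjusted p = 0.0279). The summed erythroid markers, whose cells also make heme, were higher in HS than in Con, as Cpox was. In A10-FMT, at 1610 to 2557 RPKM, they were below every HS library. In Con-FMT they spanned 1203 to 5430 RPKM, and replicate 1 exceeded HS replicate 1 (4221), whereas Cpox stayed below every HS library, in Con-FMT replicate 3 only just. Most of the sum came from hemoglobin genes. Alas2 and Car1, of the same list, did not follow it. Their means were lower in HS (108 and 5.71 RPKM) than in Con (117 and 6.37). In Con-FMT they were higher (135 and 8.74), and neither gene was called in these comparisons. The erythroid markers summed to 2884 to 3965 RPKM in HS+A10 and 2966 to 3843 RPKM in A10. Of the 6 tested between these groups, 1, Car1, was called higher in HS+A10 (0.90, adjusted p = 0.00737). The part of these cells in the Cpox differences was not tested.

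Ppox, protoporphyrinogen oxidase, stayed between 8.55 and 12.99 RPKM. It fell by 0.34 in HS+A10 (9.82, 9.73 and 8.55 RPKM) relative to A10 (12.99, 11.1 and 12.1 RPKM, SE 0.0835, adjusted p = 0.0105), and these groups did not overlap. The call was lost without HS+A10 replicate 3 (-0.28, adjusted p = 0.0505) and without the 3 libraries that stand apart (-0.33, adjusted p = 0.0594). Its means were 10.6 RPKM in Con and 10.02 RPKM in HS, a difference that did not pass the test (adjusted p = 0.592, 95% interval -0.26 to 0.12).

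Fech, which inserts iron to complete heme, was lowest in Con. It measured 35.7, 41.9 and 40.3 RPKM in Con, 53.1, 55.8 and 52.2 in HS and 51.0, 50.6 and 51.3 in A10. HS+A10 reached 62.6, 52.7 and 63.1 RPKM, A10-FMT 56.6, 49.8 and 52.0 and Con-FMT 49.9, 42.2 and 57.8. Every library of the other 5 groups lay above every Con library, with Con-FMT replicate 2 closest. Fech rose 1.37-fold in HS relative to Con (log2 change 0.44, SE 0.112, adjusted p = 0.0332). That call was lost with libraries scaled to the same median (0.26, adjusted p = 0.104), with quantile normalization (0.32, adjusted p = 0.0586) and with the replicate number as a block (0.44, adjusted p = 0.0575). It was also lost without each HS library in turn (0.45, 0.42 and 0.46, adjusted p = 0.0615, 0.0998 and 0.0608), without Con replicate 1 (0.38, adjusted p = 0.113) or 3 (0.46, adjusted p = 0.087) and without the 3 libraries that stand apart (0.46, adjusted p = 0.0661). In A10 relative to Con the change was 0.37 (adjusted p = 0.168), not called, though the groups did not overlap. In the recipients the changes from HS were smaller than or near their SE of 0.112, so Fech showed no detectable difference from HS where Cpox was lower.

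Hmox1, the enzyme that opens the heme ring, lay below HS in A10-FMT and above HS in Con-FMT, and gave the largest difference between them among the members. It measured 13.4, 11.1 and 7.78 RPKM in A10-FMT and 26.01, 37.9 and 27.8 RPKM in Con-FMT, against 18.1, 22.3 and 20.5 in HS and 16.04, 16.5 and 17.8 in Con. A10 stayed at 14.97, 16.7 and 15.5 RPKM and HS+A10 spread over 18.5, 14.7 and 28.2 RPKM. All A10-FMT libraries were the lowest of the series, and those of Con-FMT lay above every library of the other groups but HS+A10 replicate 3. Hmox1 fell by 0.88 in A10-FMT relative to HS (SE 0.177, adjusted p = 0.0112, 0.531 of the HS mean). Con-FMT was 1.51 times HS, a change of 0.55 (SE 0.177) that missed the threshold (adjusted p = 0.0512) and passed it with libraries scaled to the same median (0.66, adjusted p = 0.0237) or quantile normalized (0.62, adjusted p = 0.0316). Without the 3 libraries that stand apart it was 0.61 (adjusted p = 0.0919). Between the recipients the log2 change was -1.43 (SE 0.177, 95% interval -1.82 to -1.04, adjusted p = 0.00112), A10-FMT being at 0.353 of Con-FMT. The calls of A10-FMT against HS and against Con-FMT held under all 15 alternatives each, and without the 3 libraries that stand apart the latter was -1.49 (adjusted p = 0.00775).

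The remaining Hmox1 differences were smaller. HS exceeded Con in every library, by 0.26 (adjusted p = 0.348), and the changes with direct AOS, in HS or alone, were smaller than their SE. Kupffer cell and macrophage markers moved with Hmox1 in A10-FMT: the 12 markers, none of them at 0 in any library, summed to 108.6 to 137.3 RPKM in A10-FMT, 145.8 to 224.3 in Con-FMT and 185.7 to 267.8 in HS. Of these 12, 6 were called lower in A10-FMT than in HS (median change -0.70, against -0.16 for all genes), among them Marco (a scavenger receptor), C1qa and C1qb (complement), and 0 of 12 were called between A10-FMT and Con-FMT by limma (4 at an unadjusted p under 0.05, median -0.36). The count of 6 became 1 when libraries were scaled to the same median, and 0 without A10-FMT replicate 2, A10-FMT replicate 3 or HS replicate 3, with median changes of -0.54, -0.67, -0.59 and -0.58. Hmox1 was called lower in each of these settings. Fewer cells of a type and less RNA per cell cannot be told apart in bulk liver, and the part of these cells in the Hmox1 difference was not tested. In Con-FMT the same markers were called in 0 of 12 cases relative to HS (1 at an unadjusted p under 0.05), with a median change of -0.30, while Hmox1 was above HS.

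Slc48a1, the heme carrier of the endosome and lysosome, was higher with diet and STZ, and near the Con level in the recipients. It measured 20.1, 21.3 and 22.7 RPKM in Con, 30.3, 28.6 and 27.9 in HS and 29.7, 27.1 and 28.8 in HS+A10, and the A10 libraries, at 20.9, 26.4 and 22.5, lay below all of these treated ones. A10-FMT measured 23.3, 20.3 and 20.2 RPKM and Con-FMT 21.8, 22.7 and 24.7, both below every HS library. Slc48a1 rose 1.35-fold in HS relative to Con (log2 change 0.42, SE 0.084, adjusted p = 0.0151), a call lost without Con replicate 1 (0.38, adjusted p = 0.0565), with scaling to the same median (0.24, adjusted p = 0.0606) and with quantile normalization (0.27, adjusted p = 0.0527). It rose in HS+A10 relative to A10 by 0.29 (adjusted p = 0.0311), which was lost with scaling to the same median (0.23, adjusted p = 0.0667), with quantile normalization (0.24, adjusted p = 0.0651), with only these groups in the fit (adjusted p = 0.0671), and without HS+A10 replicate 1 (0.26, adjusted p = 0.106) or 3 (0.28, adjusted p = 0.0758), A10 replicate 1 (0.22, adjusted p = 0.131) or 3 (0.27, adjusted p = 0.1), and the 3 libraries that stand apart (0.27, adjusted p = 0.114).

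Relative to HS, Slc48a1 fell by 0.43 in A10-FMT (SE 0.084, adjusted p = 0.00968), which held under all 15 alternatives, and by 0.32 in Con-FMT (adjusted p = 0.0259). The Con-FMT call was lost with scaling to the same median (-0.20, adjusted p = 0.0581) and without Con-FMT replicate 1 (-0.28, adjusted p = 0.0863) or 2 (-0.31, adjusted p = 0.0705) or HS replicate 1 (-0.28, adjusted p = 0.0767) or 2 (-0.32, adjusted p = 0.0594). Between the recipients the Slc48a1 difference did not pass the test (adjusted p = 0.415, 95% interval -0.30 to 0.07). Kupffer cell and macrophage markers (6 of 12 called lower, median -0.70) and the summed erythroid markers were also lower in A10-FMT than in HS, with the limits given above, and their part in the Slc48a1 difference was not tested.

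Alas2, the erythroid form of the first enzyme, was called by limma in no comparison, and its group means lay between 94.1 and 135 RPKM. It measured 108 ± 25.0 RPKM in HS and 117 ± 3.61 RPKM in Con (SD, n = 3). Of the genes that take up the product, Hmox2 (the constitutive heme oxygenase), Blvra and Blvrb (biliverdin reductases) and Ugt1a1 (which conjugates bilirubin) were called in no comparison, with a smallest adjusted p of 0.187 in limma. 2 of 7 genes of the bilirubin list rose in HS relative to Con, the uptake carrier Slco1b2 (0.37, adjusted p = 0.0453) and the canalicular pump Abcc2 (0.72, adjusted p = 0.0284), with a median of 0.23 over the list and 0.14 over all genes. Scaling to the same median ended both calls (Slco1b2 0.19, adjusted p = 0.282, and Abcc2 0.54, adjusted p = 0.0622). Without a single library, Abcc2 was lost for HS replicates 2 and 3 (adjusted p = 0.07 and 0.0816, changes 0.75 and 0.58) and Con replicates 1 and 3 (0.104 and 0.0868, changes 0.60 and 0.72). Slco1b2 was lost for HS replicates 2 and 3 (adjusted p = 0.142 and 0.0896, changes 0.29 and 0.38) and each Con library (0.103, 0.0784 and 0.131, changes 0.38, 0.38 and 0.36). Neither was called without the 3 libraries that stand apart (Abcc2 0.72, adjusted p = 0.0869, and Slco1b2 0.36, adjusted p = 0.146). In HS+A10 relative to A10, Abcc2 rose from 34.7 ± 1.13 to 60.3 ± 7.57 RPKM (0.77, adjusted p = 0.00327), under all 15 alternatives.

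The 60 further genes tested were other synthesis enzymes, bilirubin genes, genes of heme and precursor transport, regulators of Alas1 and Hmox1, and heme proteins of hepatocytes. Of these 60, 13 rose and 0 fell in HS relative to Con (21.7%, where 9.8% of all genes were called). The 5 of these 13 called under every alternative were Cyp4a10, Cyp4a14, Nfe2l2, Nr1d1 and Nr1d2, from the lists of heme proteins and of regulators. In A10-FMT against HS 9 were called, 4 higher and 5 lower (15%, against 16.5% of all genes), and in Con-FMT against HS 13, 7 higher and 6 lower (21.7%, against 18.2%). In A10-FMT against Con-FMT 5 were called, 1 higher and 4 lower (8.33%, against 13.8%), and in HS+A10 against HS 5, all higher (8.33%, against 7.32%). In A10 against Con 2 were called, the regulators Nr1d1 and Nr1d2, both higher (3.33%, against 0.0686%). In HS+A10 against A10 23 were called, 20 higher and 3 lower (38.3%, against 20.9%). Among 18 tested genes of heme and precursor transport, Abcg2, which exports porphyrins, rose by 1.09 in HS+A10 relative to A10 (adjusted p = 9.99e-05), from 33.6 ± 0.776 to 72.5 ± 2.27 RPKM. It was also called in HS relative to Con (0.63, adjusted p = 0.0298), though not after scaling to the same median (0.45, adjusted p = 0.104) or without HS replicate 1 or 2 (0.48 and 0.72, adjusted p = 0.0704 and 0.0501) or Con replicate 1 or 3 (0.49 and 0.68, adjusted p = 0.103 and 0.0722), nor without the 3 libraries that stand apart (0.68, adjusted p = 0.0823). Tspo, a mitochondrial outer membrane protein that binds porphyrins, rose by 0.40 in HS relative to Con (adjusted p = 0.0189), a call lost with scaling to the same median (0.22, adjusted p = 0.237) and without HS replicate 2 (0.36, adjusted p = 0.0688) or Con replicate 2 or 3 (0.37 and 0.40, adjusted p = 0.0508 and 0.0686) or the 3 libraries that stand apart (0.40, adjusted p = 0.0662). Among 18 heme proteins of hepatocytes, the fatty acid hydroxylases Cyp4a10 and Cyp4a14, which share sequence so that their split is uncertain, rose by 5.20 and 5.41 in HS relative to Con, from 2.27 ± 0.852 to 153 ± 106 RPKM and from 0.440 ± 0.208 to 92.5 ± 70.4 RPKM. Cyp2e1, which oxidises ethanol and fatty acids, measured 2183 ± 410 RPKM in Con, 3558 ± 504 in HS, 5842 ± 365 in HS+A10, 5277 ± 135 in Con-FMT and 6163 ± 417 in A10-FMT, and its rise in HS+A10 relative to A10 (1.13, adjusted p = 6.23e-05) held under all 15 alternatives.

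Of 15 tested regulators of Alas1 and Hmox1, 4 rose in HS relative to Con (9.8% of all genes called) and 8 rose in HS+A10 relative to A10 (20.9% of all genes called). The latter count was 4 without HS+A10 replicate 1, A10 replicate 2, A10 replicate 3 or the 3 libraries that stand apart, and 5 without HS+A10 replicate 2. Nr1d1 and Nr1d2, the clock receptors that bind heme, rose in HS relative to Con by 2.71 (adjusted p = 0.00158) and 1.44 (adjusted p = 0.00157), and relative to HS Nr1d2 rose by 1.08 in both kinds of recipient. In A10 relative to Con both rose as well, Nr1d1 by 2.44 (adjusted p = 0.016) from 1.22 to 3.68 RPKM in Con to 10.03 to 30.7 RPKM in A10, and Nr1d2 by 1.39 (adjusted p = 0.0076), so Con and A10 differed in these clock genes although Dbp was low in both. These 2 calls in A10 were lost without A10 replicate 3 (2.47 and 1.39, adjusted p = 0.0776 and 0.0669), Con replicate 1 (2.14 and 1.29, adjusted p = 0.152 and 0.0926), Con replicate 3 (2.51 and 1.39, adjusted p = 0.0812 and 0.0634) or the 3 libraries that stand apart (2.54 and 1.39, adjusted p = 0.319 and 0.28). Clpx, the mitochondrial unfoldase that activates and turns over ALAS, fell by 1.48 in A10-FMT relative to HS (adjusted p = 0.00648), from 118 ± 21.3 to 42.7 ± 13.3 RPKM. It was also called lower in Con-FMT (-0.93, adjusted p = 0.0317), at 63.1 ± 23.2 RPKM, a call lost under 7 of 15 alternatives. Alas1 itself did not pass the test against HS in either kind of recipient. Nfe2l2, which encodes NRF2, the activator of Hmox1 under oxidative stress, rose by 0.78 in HS relative to Con (adjusted p = 0.0029) and by 0.72 in HS+A10 relative to A10 (adjusted p = 0.00032), comparisons in which Hmox1 was not called. In Con-FMT, where Hmox1 was above HS, Nfe2l2 was called lower than in HS (-0.43, adjusted p = 0.0184), a call lost under 3 of 15 alternatives. Bach1, the heme-sensing repressor of Hmox1, had the same order as Hmox1 between the recipients: it rose from 4.47 ± 0.578 RPKM in HS to 12.7 ± 2.84 in Con-FMT (1.31, adjusted p = 0.000607) and was lower in A10-FMT, at 6.03 ± 0.731 RPKM, than in Con-FMT (-0.95, adjusted p = 0.00266). Hnf4a, a hepatocyte transcription factor, was likewise higher in Con-FMT (184 ± 11.1 RPKM) than in HS (0.53, adjusted p = 0.00286) and A10-FMT (-0.70 for A10-FMT against Con-FMT, adjusted p = 0.00102). Apart from those of A10 against Con, and of Clpx and Nfe2l2 in Con-FMT, the changes of single genes named in this paragraph were called under every alternative.

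Other NRF2 targets, enzymes of antioxidant defence and conjugation, were followed beside Hmox1. Of 8 tested, 3 rose in HS relative to Con, with a median of 0.32 against 0.14 for all genes: Nqo1 (0.75, adjusted p = 0.0147), Srxn1 (0.81, adjusted p = 0.035) and Txnrd1 (0.27, adjusted p = 0.0425). The Nqo1 call was lost without Con replicate 1 (0.62, adjusted p = 0.0537). Scaling to the same median ended the other 2 (Srxn1 0.64, adjusted p = 0.134, and Txnrd1 0.09, adjusted p = 0.531), as did leaving out each Con library or HS replicate 1 or 2 (for Txnrd1 also 3), with adjusted p-values of 0.0736 to 0.096 for Srxn1 and 0.0807 to 0.117 for Txnrd1. Without the 3 libraries that stand apart they were 0.83 (adjusted p = 0.0679) and 0.28 (adjusted p = 0.122). In A10-FMT 4 fell relative to HS (median -0.61), and in Con-FMT 5 fell (median -0.61), where Hmox1 was above HS. With scaling to the same median these counts were 1 and 2 (medians -0.45 and -0.49). The A10-FMT count was 1 without A10-FMT replicate 2, and the Con-FMT count was 0 without Con-FMT replicate 1, 1 without HS replicate 2, 2 without Con-FMT replicate 2 or HS replicate 3 and 3 without Con-FMT replicate 3 or HS replicate 1, with a median below 0 in each case. Without the 3 libraries that stand apart the Con-FMT count was 1 (median -0.43). Srxn1, sulfiredoxin, measured 20.6 ± 3.14 RPKM in HS and fell by 0.98 in A10-FMT (adjusted p = 0.0132), and the glutathione transferase gene Gsta1 fell by 1.72 (adjusted p = 0.0137) from a low level of 5.77 ± 2.76 RPKM. Both calls were lost without A10-FMT replicate 2 (-0.94, adjusted p = 0.0514, and -1.54, adjusted p = 0.0574), and that of Srxn1 also with scaling to the same median (-0.80, adjusted p = 0.0581). Osgin1 fell by 1.25 in Con-FMT (adjusted p = 0.0196), a call lost without Con-FMT replicate 1 (-1.02, adjusted p = 0.0661), Con-FMT replicate 2 (-1.22, adjusted p = 0.0545) or HS replicate 1 (-1.005, adjusted p = 0.0651). Between the recipients 1 of the 8 was called, Txnrd1 (-0.28, adjusted p = 0.0305), where Hmox1 changed by -1.43. That Txnrd1 call was lost with scaling to the same median (-0.20, adjusted p = 0.09) and without A10-FMT replicate 2 or 3 (-0.25 and -0.26, adjusted p = 0.113 and 0.0761) or Con-FMT replicate 2 or 3 (-0.27 and -0.23, adjusted p = 0.0753 and 0.0941) or the 3 libraries that stand apart (-0.23, adjusted p = 0.147). Gsta1 and Gstm1 have close paralogs that share reads, so their values are uncertain.

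**Figure D4:**
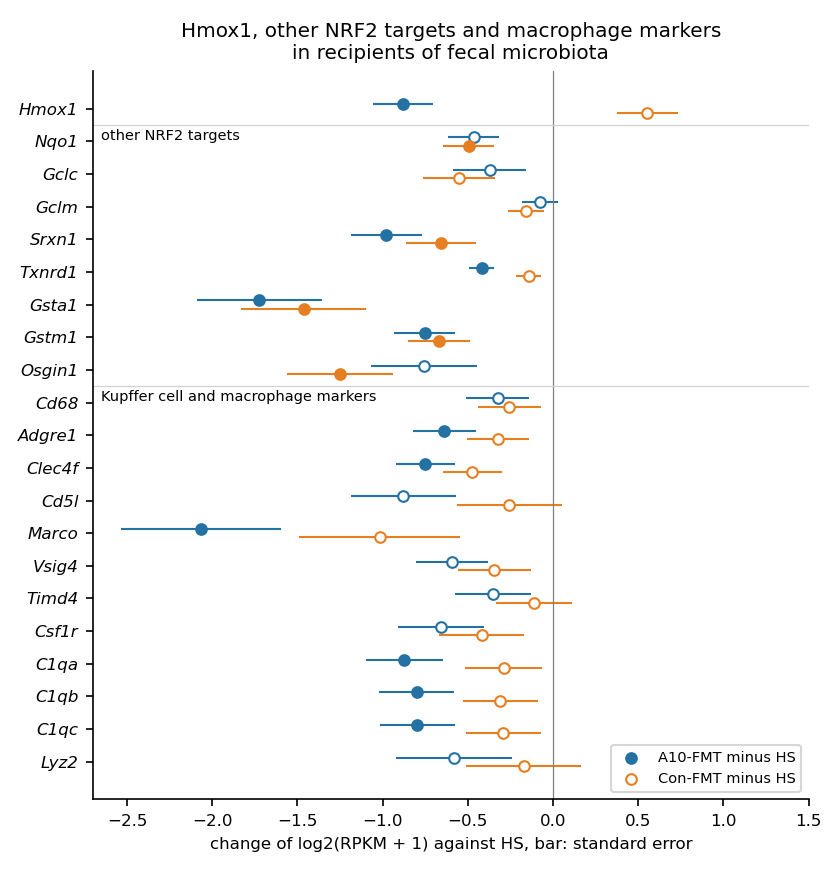
Change of log2(RPKM + 1) against HS (x axis, bars are SE) of Hmox1, 8 other NRF2 targets and 12 Kupffer cell and macrophage markers in A10-FMT and Con-FMT, with filled points for genes called at an adjusted p under 0.05. Hmox1 in Con-FMT, at 0.55, is the rightmost point, and the points of the other NRF2 targets lie left of 0 in both groups.

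Members did not vary as a block over the 18 libraries, which share groups, so the following correlations of log2(RPKM + 1) are descriptions. Cpox was closest to Slc48a1 (Pearson r = 0.825) and to Fech (r = 0.749), while Alas1 and Hmox1 had r = 0.272 and Alas1 and Ppox r = -0.6. Among 10204 genes, those most like Alas1 were Noct (r = 0.897), Pptc7 (0.875), Coq10b (0.845), Klf15 (0.834) and Enpp2 (0.827). Those most like Hmox1 were Rcsd1 (r = 0.861), Entpd1 (0.86), Plaa (0.859), Cebpz (0.839) and Pdia6 (0.838). None of these 10 genes is a member or in a list of heme genes used here.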

How the data were processed

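Liver mRNA of 18 libraries (6 groups of 3) was enriched with oligo(dT) and sequenced by the authors. They mapped the reads to reference genes and deposited RPKM values of 19057 genes with 2 decimals. The study's methods name SOAPaligner 2.20 and the submitters' processing notes name Bowtie 0.12.2 and the build mm10. The number of reads is not given in the sources used here, so no counting interval was computed and the precision rests on 3 libraries per group. RPKM depends on the gene model's length and on the most abundant mRNAs of a library.

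From these values log2(RPKM + 1) was computed. Genes with a mean RPKM of at least 1 were tested with limma 3.58.1 in R 4.3.3 (1 mean per group, variance trend, Benjamini-Hochberg adjustment, two-sided), in a fit of 12 libraries for Con, HS, A10-FMT and Con-FMT (10159 genes) and of all 18 for comparisons with A10 or HS+A10 (10204 genes). DEGseq, the test of the study, does not model variation among replicates and was not used here. Positions, promoters and figures were made in Python 3.11.15. The method was tested on simulated data.

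The members and lists were chosen with earlier results of these data known, and the lists were written from general knowledge. Named are all members and the 5 genes most correlated with Alas1 and with Hmox1. From each list the rule was up to 3 called genes per direction and comparison with the largest change, and only a part of these is named. Among those left out are Abcc3 and Flvcr2 in HS+A10 against A10, Foxo1 in Con-FMT against HS, and the lower Cyp4a10, Cyp3a11 and Cyp2b10 in A10-FMT against HS. Hnf4a in Con-FMT, Nfe2l2 in HS+A10, Hbb-b1, Epb42 and Hba-a2, and the genes named as not called lie outside this rule and were chosen after their values were seen. Alternatives tried were 0.1 as the pseudocount, a filter at 5 RPKM or none, scaling to the same median, quantile normalization, a replicate block, another set of libraries, no variance trend and each library left out. The further alternative without Con replicate 3, A10 replicate 3 and Con-FMT replicate 3, and all alternatives for the lists, were chosen after seeing the data.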

Additional observations from a re-analysis of the deposited data

Results flagged for a closer look

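For 2 members the difference between the effects of the 2 transplants, which is the A10-FMT against Con-FMT contrast because both are taken from the same HS libraries, passed the direct test with limma. For Hmox1 the effect of A10-FMT minus that of Con-FMT was -1.43 on the log2 scale (adjusted p = 0.00112), with all 3 A10-FMT libraries below and all 3 Con-FMT libraries above the HS libraries. For Alad the difference was 0.47 (adjusted p = 0.0446), with all 3 A10-FMT libraries above HS and 2 of 3 Con-FMT libraries below it. The Alad call was lost under 8 of 15 alternatives (adjusted p up to 0.17, without Con, A10 and Con-FMT replicate 3), and neither Alad effect against HS was called. Kupffer cell and macrophage markers summed lower in A10-FMT than in Con-FMT, as given above, and their part in either difference was not tested. No formal outlier test was run on groups of 3 libraries.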

How the results depend on the processing

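Hmox1 and Slc48a1 in A10-FMT against HS, Hmox1 in A10-FMT against Con-FMT and Cpox in HS+A10 against A10 were called under every alternative. The counts of called members moved as follows. For HS against Con (3 members) 0 were called with scaling to the same median, 0 with quantile normalization and 1 without Con, A10 and Con-FMT replicate 3. Con-FMT against HS (3) gave 1 with no filter and 1 with median scaling. A10-FMT against Con-FMT (2) gave 1 with no filter and 1 without those 3 libraries, and HS+A10 against A10 (4) gave 1 without them. Leaving out single libraries gave 0 to 3 for HS against Con, 2 to 3 for A10-FMT against HS, 0 to 3 for Con-FMT against HS, 1 to 2 between recipients, 0 to 1 for HS+A10 against HS, 0 for A10 against Con and for the interaction, and 1 to 4 for HS+A10 against A10. The Urod change in HS was -0.089 with median scaling and -0.026 with quantile normalization, and that of Fech in Con-FMT against HS ran from -0.22 to 0.0001889 with single libraries left out. The cause was not tested.

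Of the 60 further genes, regulators and heme proteins included, HS against Con (13) gave 6 with median scaling, 7 with quantile normalization, 22 with 18 libraries in the fit and 5 without the 3 libraries. A10-FMT against HS (9) gave 4 with no filter, 5 with quantile normalization, 15 with 18 libraries and 5 without the 3. Con-FMT against HS (13) gave 8 with no filter and 6 without the 3. A10-FMT against Con-FMT (5) gave 8 with median scaling and 2 without the 3. HS+A10 against HS (5) gave 3 with no filter, 10 with median scaling, 9 with quantile normalization, 2 with only the compared groups in the fit and 3 without the 3. A10 against Con (2) gave 1 with only the compared groups and 0 without the 3, and HS+A10 against A10 (23) gave 12 without the 3. Single libraries left out gave 5 to 13, 3 to 10, 6 to 11, 2 to 4, 2 to 6, 0 to 4 and 12 to 19 in the same order.

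With the replicate number as a block, 1 member was called for HS against Con, 1 for Con-FMT against HS and 1 for A10-FMT against Con-FMT. In 0 of 15 pairs of groups were all 3 correlations of same-numbered libraries over 0.1 (range -0.126 to 0.262), a cut that cannot exclude pairing or a shared batch. For HS+A10 with A10-FMT (0.137, 0.061 and 0.134) and A10 with Con-FMT (0.0536, 0.133 and 0.00919), each library of the first group correlated most with its own number. In the other pairs of groups this was not so for every library. The depth in reads is unknown, and 3 libraries per group limit all values.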
